A study of Homo sapiens and Mus musculus with 99 samples.

Results

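The HES and HEY genes encode transcriptional repressors of the basic helix-loop-helix and Orange class. The genes described here were HES1 (ENSG00000114315), HES2 (ENSG00000069812), HES4 (ENSG00000188290) and HEY1 (ENSG00000164683), read by symbol from 6 tables of human gene counts, and mouse Hes2 (ENSMUSG00000028940), Hes1 (ENSMUSG00000022528) and Hey1 (ENSMUSG00000040289), read by gene ID from 7 tables of mouse gene counts. They were 4 of 57820 human and 3 of 55401 mouse gene IDs, and all 7 were counted deeply enough to be tested in every experiment of their species. The 4 human genes were proposed with earlier results of these data known, so their p-values are not independent of that choice. Mouse Hes2 was chosen by its measured log2 changes against DPBS in these mouse libraries, where it fell among the most, so its values are a description with no test.

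The study measured RNA in 99 libraries of 13 experiments to ask how airway epithelial cells respond early to pore-forming proteins. NCI-H1437 and NCI-H292, each a single established line from a human lung cancer, were collected 4 h after treatment (51 libraries, 24 groups), and mouse lung epithelial cells were isolated 6 h after a treatment given through the nose (48 libraries, 23 groups). Cells or mice received ALT (Alternaria alternata mould extract); WT ALT, or extracts labelled aegs KO ALT and aegl KO ALT; Aeg-S, Aeg-L, or both as Aeg-S/L; and other pore-forming proteins labelled Lysenin, PlyA2EryB and LSL. ALT, WT ALT, Aeg-S/L, Lysenin, PlyA2EryB and LSL are called complete stimuli here, as opposed to the KO extracts and the single Aeg proteins. DPBS, a buffered saline, was the mock treatment of every experiment.

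H1437-1 held ALT+Tra, ALT and DPBS, and H1437-2 held Aeg-S/L+Tra, Aeg-S/L, Aeg-S, Aeg-L and DPBS. Tra stands for the compound so labelled, which the name of the deposited table calls a MEK inhibitor. H1437-3 and H292-2 held Aeg-S/L+BAPTA-AM, Aeg-S/L+EGTA, Aeg-S/L and DPBS. H1437-4 and H292-1 held aegs KO ALT, aegl KO ALT, WT ALT and DPBS. In mouse, Lung1 held ALT and DPBS, Lung2 held Aeg-S/L, Aeg-S, Aeg-L and DPBS, and Lung3 held WT ALT, aegs KO ALT, aegl KO ALT and DPBS. The labels give no genotype for these 3 experiments. Lung4 held Lysenin, PlyA2EryB, LSL and DPBS in WT mice. IL33KO1 held ALT, Aeg-S/L and DPBS, and IL33KO2 held Lysenin, PlyA2EryB, LSL and DPBS, all in IL-33 KO mice. Rag2gc held Aeg-S/L and DPBS in Rag2-/-; gc-/- mice, which lack lymphocytes. Every group had 2 libraries, except in Lung1 and H1437-1, where each had 3. No group had Tra, BAPTA-AM or EGTA without a stimulus, and neither doses nor mouse ages are stated in these labels.

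When a Notch receptor binds a ligand of the Delta or Jagged family on a neighbouring cell, its inner part is cut free and joins the DNA-binding protein RBPJ, and genes such as HES1 and HEY1 are switched on. The HES1 protein then binds N boxes and E boxes, recruits corepressors of the TLE family and also represses its own promoter. HES1 is in addition an early-response gene to other signals. In the lung, Notch signalling and HES1 take part in the choice between secretory, ciliated and neuroendocrine fates of airway cells.

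The start of a gene is where these inputs meet, so the 250 bases before the start are shown for the 3 human genes whose promoter could be printed, as given by RefSeq on GRCh38.p14. All read 5′ to 3′ on the strand of the gene. Capitals mark the RBPJ motif (TGGGAA), the N box (CACNAG), the class C E box (CACGCG) and the CRE core (TGACG), on either strand. The general E box (CANNTG) and the AP-1 motif (TGANTCA) were searched too and are not marked.
HES1, chr3:194135898-194136147, plus strand: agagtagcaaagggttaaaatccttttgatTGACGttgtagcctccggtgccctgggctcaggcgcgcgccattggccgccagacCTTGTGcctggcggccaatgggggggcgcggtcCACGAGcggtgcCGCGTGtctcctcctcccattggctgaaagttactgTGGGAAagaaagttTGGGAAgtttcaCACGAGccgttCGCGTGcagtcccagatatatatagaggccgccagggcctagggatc
HES4, chr1:1000098-1000347, minus strand: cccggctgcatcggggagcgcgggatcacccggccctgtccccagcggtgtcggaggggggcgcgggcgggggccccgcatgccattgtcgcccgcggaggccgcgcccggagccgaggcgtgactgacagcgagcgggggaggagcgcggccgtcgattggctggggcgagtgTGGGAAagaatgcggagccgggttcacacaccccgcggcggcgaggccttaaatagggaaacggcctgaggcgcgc
HES2, chr1:6419920-6420169, minus strand: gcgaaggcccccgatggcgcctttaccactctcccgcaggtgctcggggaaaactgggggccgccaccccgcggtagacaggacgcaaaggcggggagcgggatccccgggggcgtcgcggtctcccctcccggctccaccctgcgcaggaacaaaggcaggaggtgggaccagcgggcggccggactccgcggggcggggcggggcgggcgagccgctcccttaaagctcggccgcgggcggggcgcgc

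In the window of 300 bases that includes the first 50 after the start, the HES1 promoter held 2 RBPJ motifs, at -84 to -79 and -70 to -65, and the HES4 promoter held 1, at -76 to -71. HES1 also held 4 N boxes, of which 3 are in the printed stretch, 2 class C E boxes and 1 CRE core at -220 to -216. HES2 held none of the RBPJ, class C E box, CRE core or AP-1 letters in this window. Among 35116 promoters of the same length, 24% held the RBPJ motif, 38% an N box, 11.4% a class C E box, 68.7% an E box, 24.6% a CRE core and 7.71% an AP-1 motif. These matches are letters in a sequence and not measured sites.

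Levels are given as CPM (a gene's counts scaled to a common library size), with library sizes scaled by TMM within an experiment. Libraries held 32.4 to 53.2 M counted fragments in human cells and 29.6 to 66.3 M in mouse. Changes are log2 ratios with standard errors (SE) from edgeR's quasi-likelihood F test on the counts, and a gene is called at an adjusted p (Benjamini-Hochberg over all genes of the comparison) under 0.05. The labels name the libraries biological replicates and do not say whether they came from separate cultures or mice, so p-values measure the spread between these libraries. Whether groups overlapped is given as a description, since groups of 2 or 3 libraries can separate without a change in expression. The share of all genes whose groups did not overlap was not computed. Libraries of a group correlated at 0.951 to 0.997 in human cells and 0.969 to 0.998 in mouse (Pearson r of log2 CPM). The first DPBS library of H1437-1 was the least like its group (r of 0.951 and 0.966), and in mouse the DPBS pairs of Lung3 (0.969) and IL33KO1 (0.969) were lowest. For HES1 and HES4 with ALT in H1437-1, for Hes1 with WT ALT in Lung3 and for Hes2 in Lung3 and IL33KO1, values without these libraries stand beside the result. Mitochondrial transcripts took 0.19 to 5.66% of counts in human libraries and 2.4 to 5.83% in mouse. The epithelial markers EPCAM, CDH1, KRT8, KRT18 and KRT19 summed to 2316 to 4102 CPM in NCI-H1437 and 3052 to 4086 CPM in NCI-H292, and the leukocyte markers PTPRC, CD3E and CD68 to at most 0.259 CPM. Mouse gene IDs were not paired with names in the tables used here, so the mouse cells were not checked against markers. In these bulk libraries, fewer cells of a type and less RNA per cell cannot be told apart.

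Without a stimulus the 4 human genes stood at different levels in the 2 lines. Per kilobase of exon, the median over DPBS libraries in NCI-H1437 (n = 9) was 31.1 CPM for HES4, 20.4 CPM for HES1, 7.54 CPM for HEY1 and 0.602 CPM for HES2. In NCI-H292 (n = 4) it was 19.8 CPM for HES1, 16.2 CPM for HES4, 7.39 CPM for HES2 and 1.66 CPM for HEY1. The ranges of HES1 and HES4 overlapped in both lines (17.8 to 28.5 against 20.9 to 51.8 CPM per kilobase in NCI-H1437, and 18.6 to 23.1 against 14.2 to 19 in NCI-H292). HEY1 and HES2 overlapped neither with these nor with each other. HES2 was thus the lowest of the 4 in NCI-H1437 and HEY1 in NCI-H292.

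HES1, a main Notch target and a repressor of differentiation genes, rose under every stimulus that held both Aeg proteins. With ALT in H1437-1 it stood at 95.3, 129 and 142 CPM, against 58.8, 57.8 and 50.5 CPM with DPBS. With WT ALT it stood at 179 and 161 CPM in H1437-4, against 44.0 and 41.7 CPM with DPBS, and at 458 and 452 CPM in H292-1, against 42.1 and 47.7 CPM. The groups did not overlap in any of these, and the treated libraries of NCI-H292 were the highest.

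Aeg-S/L gave HES1 387 and 350 CPM in H1437-2, against 39.5 and 42.1 CPM with DPBS. It gave 321 and 343 CPM in H1437-3, against 36.8 and 39.5 CPM, and 584 and 588 CPM in H292-2, against 39.6 and 38.4 CPM. DPBS libraries lay at 36.8 to 58.8 CPM over all 6 experiments. With extracts the log2 changes were 1.13 (SE 0.25, adjusted p = 0.0272) for H1437-1, 1.99 (SE 0.07, adjusted p = 1.88e-12) for H1437-4 and 3.34 (SE 0.13, adjusted p = 8.23e-08) in H292-1. For Aeg-S/L they were 3.18 (SE 0.24, adjusted p = 4.47e-06) in H1437-2, 3.12 (SE 0.07, adjusted p = 1.68e-14) in H1437-3 and 3.91 (SE 0.07, adjusted p = 1.95e-19) in H292-2. All 6 passed the test (edgeR). Among all genes tested, the share called higher was 3.59% (H1437-1), 15.8% (H1437-4), 11.6% (H292-1), 3.63% (H1437-2), 15.4% (H1437-3) and 22.1% (H292-2).

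The smallest of these, in H1437-1, was also the least stable. It no longer passed without any 1 of 5 of the 9 libraries (the second ALT+Tra, ALT and DPBS libraries and the third ALT and DPBS libraries), with log2 changes of 1 to 1.14 and adjusted p of 0.0551 to 0.151 (edgeR). Without the DPBS library that stood apart it was 1.15 (adjusted p = 0.0369, edgeR).

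**Figure D1:**
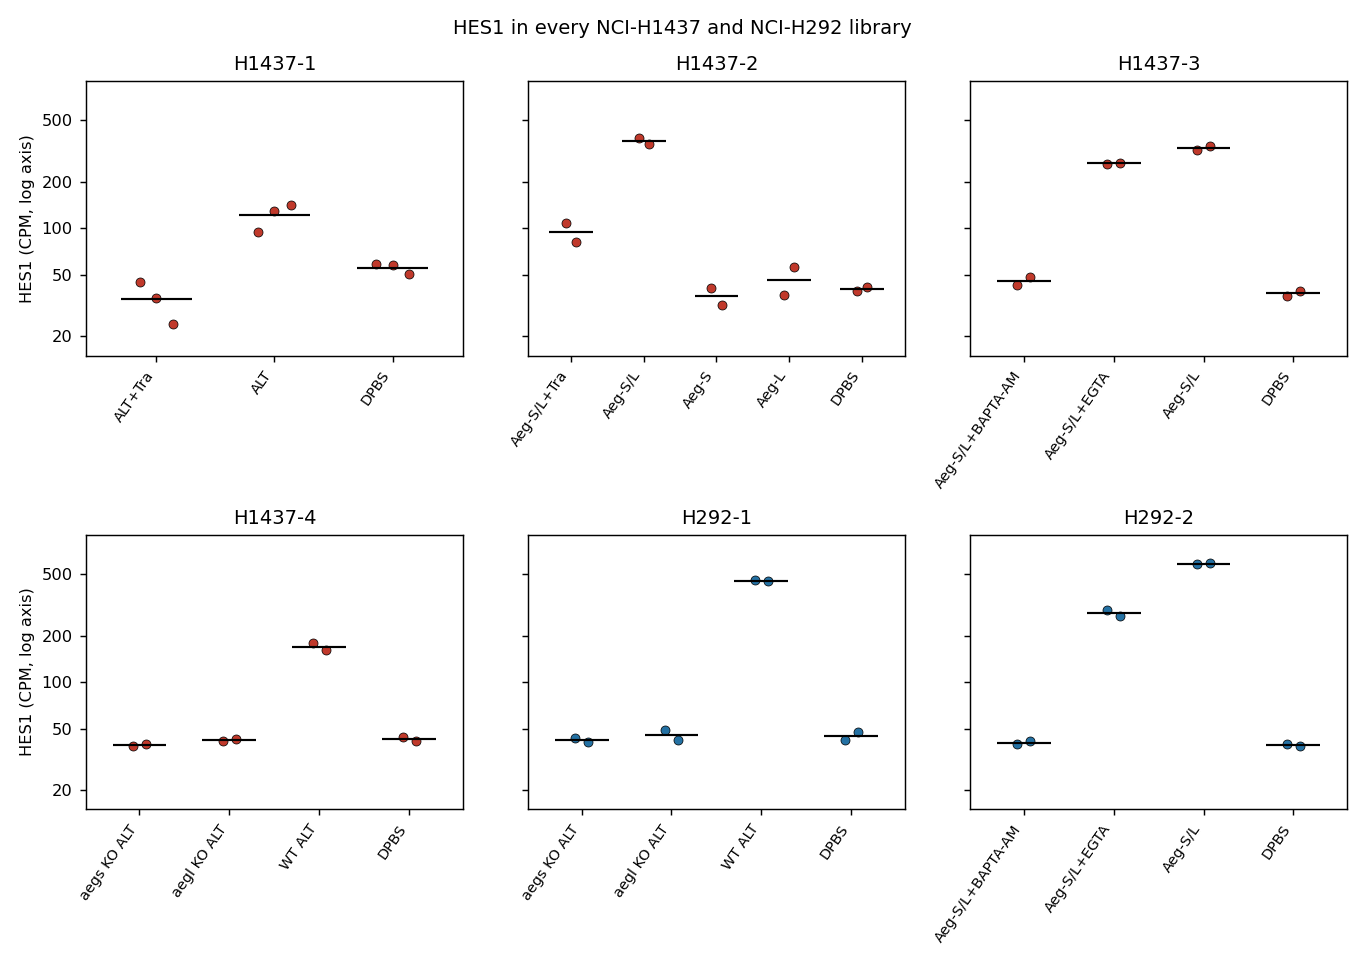
HES1 in CPM (log axis) in each of the 51 human libraries, 1 panel per experiment, red for NCI-H1437 and blue for NCI-H292. Points are libraries and bars are group means. DPBS libraries lie between 36.8 and 58.8 CPM in every panel, while Aeg-S/L and WT ALT libraries lie between 161 and 588 CPM.

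Extracts labelled as lacking either Aeg gene left HES1 near its DPBS level. With aegs KO ALT it stood at 38.5 and 39.6 CPM in H1437-4 and 43.7 and 41.2 CPM in H292-1. With aegl KO ALT it stood at 41.9 and 42.7 CPM in H1437-4 and 49.2 and 42.3 CPM in H292-1. Against DPBS these 4 changes lay between -0.14 and 0.03 on the log2 scale, and none was called. Against WT ALT all 4 were called lower, by -2.12 (aegs KO) and -2.01 (aegl KO) in H1437-4 and by -3.42 and -3.31 in H292-1. The largest adjusted p of these 4 was 1.11e-07 (edgeR). Among all genes, 14.2% and 14.5% were called lower in H1437-4 and 13.4% and 9.13% in H292-1.

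The single proteins likewise left HES1 near DPBS in H1437-2. It stood at 41.0 and 31.8 CPM with Aeg-S and 37.2 and 55.9 CPM with Aeg-L, and both groups overlapped DPBS. The log2 changes were -0.16 (SE 0.23) and 0.19 (SE 0.23).

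Over all 4 human genes, the 8 values with single proteins held 0 calls by edgeR, 0 at an unadjusted p under 0.05 and 0 calls by DESeq2. Among all genes edgeR called 0% with Aeg-S and 0% with Aeg-L, with 1491 and 186 genes at an unadjusted p under 0.05 and 0 and 0 calls by DESeq2. The 16 values with KO extracts against DPBS held 0 calls by edgeR, 1 at an unadjusted p under 0.05 and 0 calls by DESeq2. Among all genes edgeR called 1.08% (aegs KO) and 0.766% (aegl KO) in H1437-4, and 0% and 0.12% in H292-1. For aegs KO ALT in H292-1, 308 genes had an unadjusted p under 0.05 and DESeq2 called 0.

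HES1 was lower with Tra and a stimulus than with the stimulus alone. No group had Tra without a stimulus, so an effect on the response and one on the unstimulated level cannot be told apart. With ALT+Tra, HES1 stood at 45.3, 35.5 and 23.9 CPM, all below the 3 ALT libraries and the 3 DPBS libraries. The change from ALT was -1.80 (SE 0.26, adjusted p = 0.00274, edgeR), while against DPBS it was -0.67 (SE 0.25, adjusted p = 0.285), in a comparison that called 0.283% of all genes. With Aeg-S/L+Tra, HES1 stood at 108 and 81.4 CPM, below both Aeg-S/L libraries and above both DPBS libraries. The change from Aeg-S/L was -1.96 (SE 0.23, adjusted p = 0.000562), and the change from DPBS was 1.22 (SE 0.23, adjusted p = 0.037, edgeR). The call against DPBS was lost without any 1 of the 6 libraries of Aeg-S/L+Tra, Aeg-S/L and DPBS, with adjusted p up to 0.535. Among all genes, 3.75% were called lower with ALT+Tra than with ALT and 1.15% with Aeg-S/L+Tra than with Aeg-S/L, and 0.478% were called higher with Aeg-S/L+Tra than with DPBS.

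The 2 calcium chelators gave different HES1 levels in both lines. No group had a chelator without Aeg-S/L. For HES1, HES4, HES2 and HEY1, an effect on the response and one on the unstimulated level thus cannot be told apart. BAPTA-AM is the acetoxymethyl ester of BAPTA, an aromatic relative of EGTA, and enters cells, where the ester is cleaved. EGTA has no such ester and stays mostly outside cells. With Aeg-S/L+BAPTA-AM, HES1 stood at 43.0 and 48.6 CPM in H1437-3 and 39.7 and 41.4 CPM in H292-2, just above the DPBS libraries. With Aeg-S/L+EGTA it stood at 263 and 264 CPM in H1437-3 and 293 and 267 CPM in H292-2, between the Aeg-S/L and DPBS libraries and overlapping neither.

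Against Aeg-S/L, BAPTA-AM lowered HES1 by -2.86 (SE 0.07) in H1437-3 and -3.85 (SE 0.07) in H292-2, and EGTA by -0.33 (SE 0.07) and -1.07 (SE 0.06). The largest adjusted p of these 4 was 0.00107, for EGTA in H1437-3 (edgeR). Among all genes, BAPTA-AM lowered 16.1% in H1437-3 and 20.3% in H292-2, and EGTA 14.8% and 21.7%. The chelators were also compared directly, a comparison added after the values had been seen and with doses not given. HES1 was lower with BAPTA-AM than with EGTA by -2.52 (95% interval -2.68 to -2.37) in H1437-3 and -2.79 (95% interval -2.92 to -2.66) in H292-2. In that comparison 21.1% and 24.7% of all genes were called lower.

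The share of counts on mitochondrial genes moved with BAPTA-AM. In H1437-3 it was 1.15 and 0.796% with BAPTA-AM, 2.29 and 2.34% with EGTA, 3.26 and 3.45% with Aeg-S/L and 2.38 and 1.98% with DPBS. In H292-2 it was 0.19 and 0.217% with BAPTA-AM, 1.4 and 1.06% with EGTA, 2.05 and 1.82% with Aeg-S/L and 2.09 and 2.41% with DPBS. The BAPTA-AM libraries were lowest in both lines, and the part of this in the changes of HES1, HES4, HES2 and HEY1 with BAPTA-AM was not tested.

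With Aeg-S/L+BAPTA-AM, the change of HES1 from DPBS was small or not detected. Against DPBS it was 0.26 (SE 0.07, adjusted p = 0.00905, edgeR) in H1437-3 and 0.06 (SE 0.06, adjusted p = 0.523) in H292-2. The first was not called without the second BAPTA-AM library (0.16, adjusted p = 0.152, edgeR) or without the first DPBS library (0.21, adjusted p = 0.075). Under EGTA the change from DPBS stayed at 2.79 in H1437-3 and 2.85 in H292-2. Among all genes, 15% were called higher than DPBS with BAPTA-AM and 4.19% with EGTA in H1437-3.

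**Figure D2:**
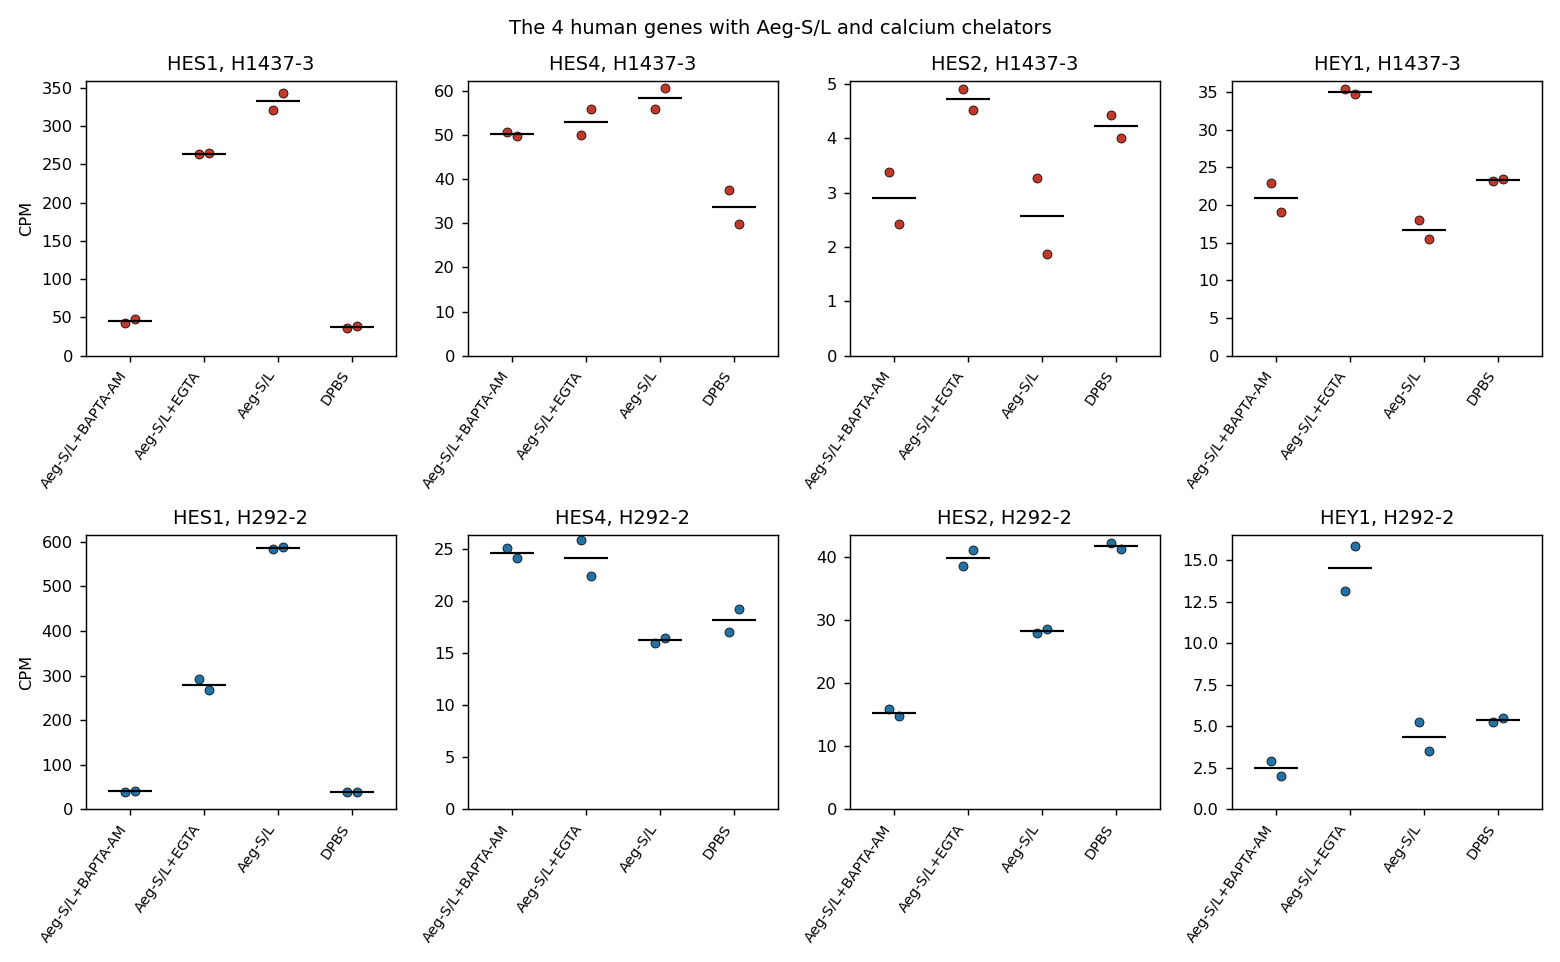
HES1, HES4, HES2 and HEY1 in CPM (axes from 0, scaled per panel) in H1437-3 (top) and H292-2 (bottom). Points are libraries and bars are group means of 2. HES1 with BAPTA-AM lies beside DPBS in both lines, and HEY1 is highest with EGTA, at 35.4 and 34.7 CPM in H1437-3 and 13.2 and 15.8 CPM in H292-2.

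HES4, a close relative of HES1 in the human genome, rose in 3 of 4 NCI-H1437 experiments under a stimulus without inhibitor, and in NCI-H292 these stimuli gave no called change. In H1437-4 it stood at 98.03 and 79.8 CPM with WT ALT, against 35.5 and 33.7 CPM with DPBS. With Aeg-S/L it stood at 95.0 and 85.6 CPM in H1437-2, against 35.4 and 31.2 CPM, and at 55.9 and 60.7 CPM in H1437-3, against 37.5 and 29.8 CPM. None of these groups overlapped. The log2 changes were 1.36 (SE 0.10, adjusted p = 2.93e-08), 1.44 (SE 0.36, adjusted p = 0.0345) and 0.79 (SE 0.10, adjusted p = 1.17e-05, edgeR). The call in H1437-2 was lost without the first Aeg-S/L+Tra library, either Aeg-S/L library or either DPBS library, with adjusted p of 0.063 to 0.258.

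In H1437-1, HES4 stood at 57.1, 78.0 and 88.1 CPM with ALT, against 57.9, 23.4 and 34.7 CPM with DPBS. Here the groups overlapped through the DPBS library that stood apart. The change was 0.94 (SE 0.31, adjusted p = 0.128), and 1.34 (adjusted p = 0.0146, edgeR) without that library. It was also called with no filter on low counts (0.95, adjusted p = 0.00818, edgeR).

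In NCI-H292, HES4 stood at 19.7 and 21.2 CPM with WT ALT, against 15.9 and 21.2 CPM with DPBS, and at 16.0 and 16.5 CPM with Aeg-S/L, against 17.0 and 19.3 CPM. The changes were 0.14 (SE 0.28, adjusted p = 0.757) and -0.16 (SE 0.11, adjusted p = 0.258). HES4 thus passed in 3 of 6 comparisons of a stimulus with DPBS, all of them in NCI-H1437. The share of all genes called higher was 3.59%, 3.63%, 15.4% and 15.8% in H1437-1 to H1437-4, and 11.6% and 22.1% in H292-1 and H292-2.

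The difference between the lines was itself tested in joint fits, in which line and experiment cannot be told apart. The HES4 change in NCI-H292 minus that in NCI-H1437 was -1.25 (SE 0.32, adjusted p = 0.0232) for WT ALT and -0.94 (SE 0.16, adjusted p = 0.000159) for Aeg-S/L (edgeR). HES1 differed the other way, with 1.32 (SE 0.14, adjusted p = 1.07e-05) for WT ALT and 0.80 (SE 0.09, adjusted p = 1.47e-06) for Aeg-S/L. Among all genes, 4.2% were higher and 4.7% lower in NCI-H292 by this test for WT ALT, and 7.48% and 6.82% for Aeg-S/L. The HES4 difference for WT ALT was lost without any 1 of 6 libraries, with adjusted p up to 0.0982 (H1437-4 DPBS 1 and 2 and WT ALT 1; H292-1 DPBS 2 and WT ALT 1 and 2). For the KO extracts against DPBS, no difference between the lines was called for any of the 4 genes, with values of -0.29 to 0.42 and no unadjusted p under 0.05 (edgeR), while 0% (aegs KO) and 0.0645% (aegl KO) of all genes were called.

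HES4 was lower with KO extracts than with WT ALT in H1437-4, at 32.5 and 38.4 CPM with aegs KO ALT and 37.7 and 35.0 CPM with aegl KO ALT. The changes were -1.32 and -1.29 (larger adjusted p = 7.36e-08, edgeR). In H292-1 neither KO extract was called against WT ALT (-0.38 and 0.32). Tra left HES4 at 73.1 and 55.5 CPM with Aeg-S/L, below both Aeg-S/L libraries, with a change of -0.49 (SE 0.35, adjusted p = 0.764). Against DPBS, HES4 with Aeg-S/L+Tra was not called in the main fit (adjusted p = 0.516, edgeR). HES4 was called higher there with no filter on low counts (0.95, adjusted p = 0.00238, edgeR). With ALT+Tra it stood at 35.7, 25.9 and 34.6 CPM, below all 3 ALT libraries, with a change of -1.22 (SE 0.31, adjusted p = 0.0505). That value was called by DESeq2 (adjusted p = 0.00539), with no filter on low counts (adjusted p = 0.000185, edgeR), and without the first DPBS library (adjusted p = 0.00823) or the second (adjusted p = 0.0391, edgeR).

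The chelators did not separate HES4 as they did HES1. In H1437-3 it stood at 50.6 and 49.9 CPM with BAPTA-AM and 50.1 and 55.9 CPM with EGTA, above both DPBS libraries. In H292-2 it stood at 25.1 and 24.1 CPM with BAPTA-AM and 25.9 and 22.4 CPM with EGTA, above both Aeg-S/L and both DPBS libraries. BAPTA-AM against EGTA gave -0.08 (95% interval -0.28 to 0.13, adjusted p = 0.58) in H1437-3 and 0.03 (95% interval -0.19 to 0.25, adjusted p = 0.852, edgeR) in H292-2. Against Aeg-S/L, neither chelator was called in H1437-3 (-0.21 and -0.14), although the BAPTA-AM value was called without the second DPBS library (adjusted p = 0.0484), and both were called higher in H292-2, by 0.60 (adjusted p = 0.000168) and 0.57 (adjusted p = 0.000251). Against DPBS, HES4 was called higher in both lines, by 0.58 with BAPTA-AM and 0.66 with EGTA in H1437-3, and by 0.44 and 0.41 in H292-2 (largest adjusted p = 0.00578, edgeR). The H292-2 calls were lost without the first DPBS library (adjusted p = 0.0572 with BAPTA-AM and 0.0839 with EGTA) and, for EGTA, without the first EGTA library (adjusted p = 0.0515). The effects of the chelators against Aeg-S/L differed between the lines, by 0.77 (SE 0.15, adjusted p = 0.0014) for BAPTA-AM and 0.70 (SE 0.15, adjusted p = 0.00295, edgeR) for EGTA, in tests that called 4.99% and 8.27% of all genes in that direction. They share their Aeg-S/L libraries with the HES4 difference between lines for Aeg-S/L against DPBS, so they are not separate from it. In H292-2, 17.6% of all genes were called higher with BAPTA-AM than with Aeg-S/L and 23.2% with EGTA.

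**Figure D3:**
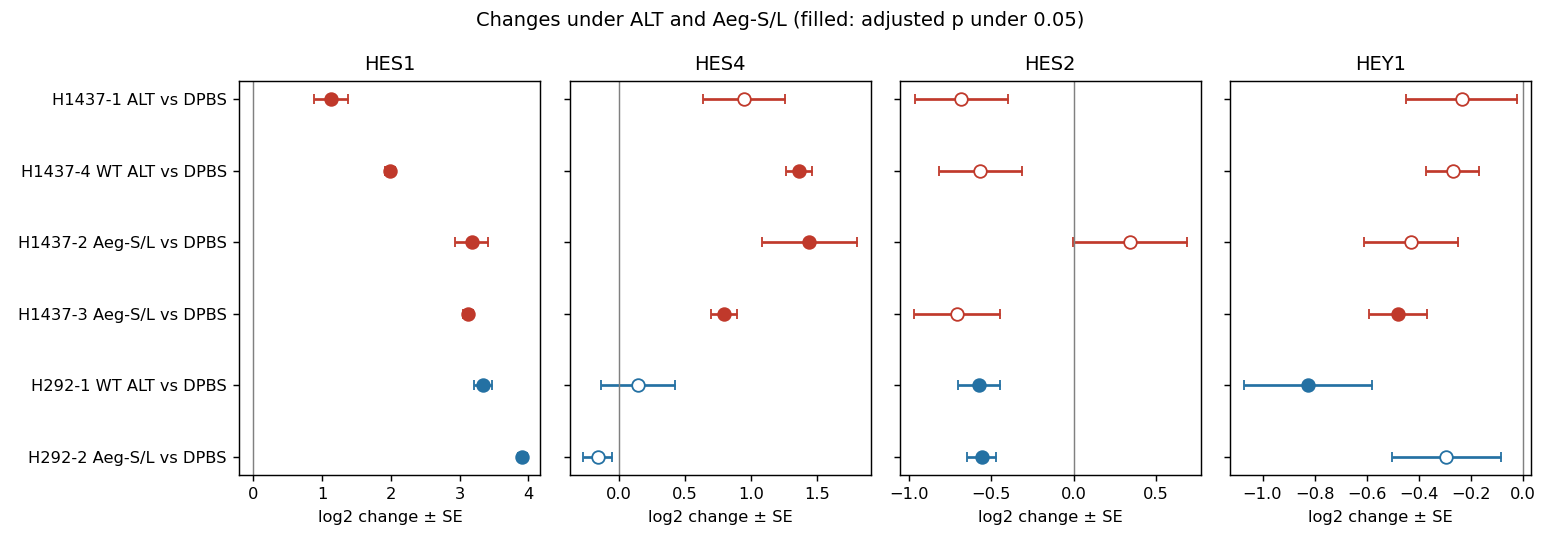
Log2 change of HES1, HES4, HES2 and HEY1 with ALT, WT ALT or Aeg-S/L against DPBS in the 6 human experiments, with SE bars. Horizontal scales differ between panels, red is NCI-H1437, blue is NCI-H292, and filled points passed an adjusted p under 0.05. HES1 passes in all 6, HES4 in 3 of NCI-H1437, HES2 in both of NCI-H292, and HEY1 in 2.

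HES2, a HES family member expressed in epithelia whose targets are little known, fell under the stimuli in NCI-H292, where its level was higher. It stood at 23.8 and 26.1 CPM with WT ALT in H292-1, against 35.7 and 38.6 CPM with DPBS. In H292-2 it stood at 28.0 and 28.7 CPM with Aeg-S/L, against 42.2 and 41.3 CPM. The groups did not overlap. The log2 changes were -0.57 (SE 0.13, adjusted p = 0.00974) and -0.56 (SE 0.09, adjusted p = 4e-05, edgeR), where 11.3% and 21.1% of all genes were called lower. The first was lost without the second DPBS library or either WT ALT library, with adjusted p up to 0.126.

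In NCI-H1437 HES2 lay between 0.965 and 4.91 CPM in all 35 libraries, with 35 counts at the least. None of its 4 changes under a stimulus was called, and they ran from -0.71 to 0.34. The shares of all genes called lower in these comparisons were 1.13%, 3.1%, 15.8% and 17.1% in the order of the experiments. In H1437-3 it stood at 3.28 and 1.88 CPM with Aeg-S/L, against 4.44 and 4.00 CPM with DPBS, with no overlap (adjusted p = 0.052), and was called when the first Aeg-S/L library or either BAPTA-AM library was left out (adjusted p of 0.0109 to 0.0401, edgeR), and with no filter on low counts (adjusted p = 0.0274). In H1437-4 the change (-0.57, adjusted p = 0.101) was called without the second WT ALT library (-0.86, adjusted p = 0.0335). The test of the difference between the lines made no call for HES2, with -0.04 (SE 0.26, adjusted p = 0.98) for WT ALT and 0.16 (SE 0.24, adjusted p = 0.735) for Aeg-S/L.

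KO extracts kept HES2 in H292-1 at its DPBS level, with 35.0 and 37.3 CPM for aegs KO ALT and 41.6 and 36.7 CPM for aegl KO ALT. Both were called higher than WT ALT, by 0.53 (adjusted p = 0.0126) and 0.65 (adjusted p = 0.00613), and both calls were lost without either WT ALT library (adjusted p up to 0.143, edgeR). Among all genes 13.2% and 9.85% were called higher there. In H1437-4 the changes of HES2 from WT ALT were 0.63 (adjusted p = 0.0741) with aegs KO ALT and 0.64 (adjusted p = 0.0682) with aegl KO ALT. Both were called with no filter on low counts (adjusted p = 0.0453 and 0.0396, edgeR) and without the second WT ALT library (adjusted p = 0.0239 and 0.0228).

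The chelators moved HES2 in opposite directions in H292-2. It stood at 15.9 and 14.8 CPM with BAPTA-AM, the lowest of the 4 groups, and at 38.7 and 41.1 CPM with EGTA, beside DPBS. Against Aeg-S/L the changes were -0.88 (SE 0.09, adjusted p = 2.44e-07) with BAPTA-AM and 0.49 (SE 0.09, adjusted p = 0.000146) with EGTA. BAPTA-AM against EGTA gave -1.38 (95% interval -1.57 to -1.18, adjusted p = 3.5e-10, edgeR). Against DPBS, HES2 with BAPTA-AM was -1.44 (SE 0.09, adjusted p = 3.58e-10) and with EGTA -0.07 (SE 0.09, adjusted p = 0.61). Of all genes, 19% were called lower with BAPTA-AM than with DPBS there.

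In H1437-3, HES2 stood at 3.38 and 2.43 CPM with BAPTA-AM and 4.91 and 4.53 CPM with EGTA. EGTA was called higher than Aeg-S/L (0.87, SE 0.26, adjusted p = 0.0193), and BAPTA-AM was called lower than EGTA (-0.70, 95% interval -1.25 to -0.15, adjusted p = 0.0424, edgeR). Both calls depended on single libraries: the first was lost without either EGTA library or the second Aeg-S/L library (adjusted p up to 0.209), the second without either EGTA library or the second BAPTA-AM library (adjusted p up to 0.249). The BAPTA-AM effect differed between the lines by -1.09 (SE 0.24, adjusted p = 0.00424, edgeR; 6.01% of all genes), and this was not called without the first BAPTA-AM library (adjusted p = 0.0594) or the second Aeg-S/L library (adjusted p = 0.0527) of H1437-3.

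HEY1, a Notch target best known for its part in vascular and heart development, was called lower in 2 of 6 comparisons of a stimulus with DPBS, and all 6 log2 changes were negative. The share of all genes called lower was 1.13%, 3.1%, 15.8% and 17.1% in H1437-1 to H1437-4, and 11.3% and 21.1% in H292-1 and H292-2. With Aeg-S/L in H1437-3 HEY1 stood at 18.0 and 15.4 CPM, against 23.2 and 23.5 CPM with DPBS, a change of -0.48 (SE 0.11, adjusted p = 0.00328). With WT ALT in H292-1 it stood at 3.59 and 3.20 CPM, against 4.88 and 7.18 CPM, a change of -0.83 (SE 0.25, adjusted p = 0.0348, edgeR). The groups did not overlap in either. The first was lost without the second Aeg-S/L library (-0.38, adjusted p = 0.0539), and the second without the second DPBS library (-0.52, adjusted p = 0.221) or either WT ALT library (adjusted p = 0.119 and 0.182, edgeR). The other 4 changes ran from -0.43 to -0.24, and that in H1437-4 (-0.27, adjusted p = 0.0542) was called without the second aegs KO library (adjusted p = 0.0488, edgeR).

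With KO extracts HEY1 stood at 23.3 to 26.9 CPM in H1437-4, against 18.9 and 19.8 CPM with WT ALT. In H292-1 it stood at 5.17 and 6.24 CPM with aegs KO ALT and 9.88 and 7.62 CPM with aegl KO ALT. All 4 were called higher than WT ALT, by 0.38 and 0.36 in H1437-4 and by 0.75 and 1.37 in H292-1 (largest adjusted p = 0.0449, edgeR). The aegl KO value of H292-1 kept its call without each library in turn. The others were lost without the second aegs KO library (adjusted p = 0.139) in H1437-4, without the first WT ALT or first aegl KO library there (adjusted p = 0.0572 and 0.101), and without any WT ALT or aegs KO library in H292-1 (adjusted p up to 0.213). In H1437-4, 15.7% (aegs KO) and 16.2% (aegl KO) of all genes were called higher than with WT ALT.

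Aeg-S/L+EGTA gave the highest HEY1 levels of the 4 groups in both lines. In H1437-3 it stood at 35.4 and 34.7 CPM, and in H292-2 at 13.2 and 15.8 CPM, against 5.24 and 5.50 CPM with DPBS there. Against Aeg-S/L the changes were 1.07 (SE 0.11, adjusted p = 2.22e-06) and 1.73 (SE 0.20, adjusted p = 1.13e-06), and against DPBS 0.59 (SE 0.11, adjusted p = 0.00254) and 1.43 (SE 0.20, adjusted p = 1.39e-05, edgeR). In H1437-3, 15.8% of all genes were called higher with EGTA than with Aeg-S/L, and in H292-2 20.1% were called higher with EGTA than with DPBS.

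With BAPTA-AM, HEY1 stood at 22.9 and 19.0 CPM in H1437-3, between the Aeg-S/L and DPBS libraries, and at 2.91 and 2.04 CPM in H292-2, below all others. The changes from Aeg-S/L were 0.32 (SE 0.11, adjusted p = 0.0399) and -0.83 (SE 0.22, adjusted p = 0.0059, edgeR). In H1437-3, 11.6% of all genes were called higher with BAPTA-AM. The first was lost without the first BAPTA-AM library (adjusted p = 0.328), either EGTA library or the second Aeg-S/L library, and also by DESeq2. The second was lost without the second BAPTA-AM library (-0.59, adjusted p = 0.0992) or the first Aeg-S/L library (-0.52, adjusted p = 0.142, edgeR). The effects of BAPTA-AM differed between the lines by -1.20 (SE 0.25, adjusted p = 0.00225), and those of EGTA by 0.65 (SE 0.23, adjusted p = 0.0551). For HES1 the differences were -1.04 for BAPTA-AM and -0.74 for EGTA, where 6.15% of all genes were called in that direction with EGTA. These HES1 differences share their Aeg-S/L libraries with the HES1 difference for Aeg-S/L against DPBS. The EGTA difference of HEY1 was called without any 1 of 3 libraries (H1437-3 BAPTA-AM 2; H292-2 EGTA 1 and Aeg-S/L 1), with adjusted p of 0.0147 to 0.0494 (edgeR). Against DPBS, HEY1 with BAPTA-AM was -1.12 (SE 0.22, adjusted p = 0.00042) in H292-2 and -0.16 (adjusted p = 0.299) in H1437-3. BAPTA-AM was lower than EGTA by -0.74 (95% interval -0.97 to -0.52) in H1437-3 and -2.56 (95% interval -3.00 to -2.11) in H292-2, with adjusted p of 4.19e-05 and 8.12e-09 (edgeR). Of the 4 genes, HES1, HES2 and HEY1 were thus called lower with BAPTA-AM than with EGTA in both lines, and HES4 in neither, where 21.1% (H1437-3) and 24.7% (H292-2) of all genes were called lower.

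With Tra, neither HES2 nor HEY1 had a called change against the stimulus, where 5.08% (ALT+Tra) and 1.27% (Aeg-S/L+Tra) of all genes were called in either direction. HEY1 stood at 20.3 ± 4.38 CPM with ALT+Tra and 25.6 ± 1.62 CPM with ALT (SD, n = 3 each), and at 19.3 ± 3.54 CPM with Aeg-S/L+Tra and 19.7 ± 0.069 CPM with Aeg-S/L (SD, n = 2 each). HES2 stood at 1.19 ± 0.225 CPM with ALT+Tra and 1.65 ± 0.296 CPM with ALT (SD, n = 3 each), and at 1.96 ± 0.0396 CPM with Aeg-S/L+Tra and 3.51 ± 0.288 CPM with Aeg-S/L (SD, n = 2 each). For HES2 both Aeg-S/L+Tra libraries (1.99 and 1.93 CPM) lay below both Aeg-S/L libraries (3.31 and 3.71 CPM). Against DPBS, HES2 with ALT+Tra did not overlap and was called lower by DESeq2 (-1.15, adjusted p = 0.0447). It was not called by edgeR (adjusted p = 0.15), in a comparison that called 0.283% of all genes.

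Genes of a Notch pathway list were looked up in the same fits. The list was chosen with earlier results of these data known, so its shares beside those of all genes are a description. Of 53 names of the Notch pathway and related repressors (ligands, receptors, cleavage, nuclear complex, modifiers, other HES and HEY genes, TLE corepressors and ID genes), 52 matched a gene ID and 44 or 45 were tested per experiment. With Aeg-S/L, 16 were called higher and 6 lower in H1437-3 (48.9%, against 31.2% of all genes), 17 and 9 in H292-2 (57.8%, against 43.2%), and 8 and 3 in H1437-2 (24.4%, against 6.72%). With WT ALT, 15 were called higher and 8 lower in H1437-4 (51.1%, against 32.8%) and 12 and 4 in H292-1 (35.6%, against 22.9%), and with ALT in H1437-1 3 and 1 (9.09%, against 4.71%). Medians ran from 0.10 to 0.25 on the log2 scale, against -0.03 to 0.01 for all genes. Leaving out 1 library moved the number called to between 2 and 7 in H1437-1, 2 and 17 in H1437-2 and 7 and 19 in H292-1.

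Among ligands, which activate Notch on the neighbouring cell, JAG1 was called higher in 5 of 6, with 1.46, 1.45 and 1.43 in H1437-2, H1437-3 and H1437-4, and 0.75 and 1.10 in H292-1 and H292-2. DLL4 was higher by 3.39 in H292-1 and 4.04 in H292-2 and by 1.34 in H1437-3, and JAG2 was called in the same 5 experiments as JAG1, from 0.58 to 1.08. LFNG, a sugar transferase that tunes which ligands a Notch receptor answers to, was called lower in all 6, from -1.51 in H292-1 to -2.50 in H1437-3. MIB1, a ubiquitin ligase that ligands need to signal, was called lower in 5, from -0.35 to -0.91. RBPJ, the DNA-binding partner of Notch, was also called lower in these 5, from -0.53 to -0.92. NOTCH1, a receptor, was called higher in 3 NCI-H1437 experiments (1.09, 0.79 and 0.36) and lower in H292-2 (-0.44).

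ID2, which encodes a helix-loop-helix protein without a DNA-binding part, was called higher in all 6, from 1.89 in H1437-1 to 3.50 in H292-1. ID1 was called higher in H1437-2, H1437-3 and H1437-4 (1.25, 0.93 and 0.85) and lower in H292-2 (-1.18), a difference of -2.10 (SE 0.11, adjusted p = 1.65e-12, edgeR) between H292-2 and H1437-3. TLE1, a corepressor that HES proteins bind, was called higher in 5 of 6, from 0.54 to 1.29. BHLHE40, another Orange-domain repressor, was called higher in the same 5, from 0.46 to 1.54.

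With BAPTA-AM against EGTA, 10 of 45 tested genes of the list were called higher and 19 lower in H1437-3 (64.4%, against 37.7% of all genes), and 11 and 23 in H292-2 (75.6%, against 46.6%). Medians were -0.20 and -0.27 on the log2 scale, against 0.02 for all genes in both. Against Aeg-S/L, BAPTA-AM had 4 higher and 14 lower in H1437-3 and 5 and 19 in H292-2 (40% and 53.3%, against 27.7% and 37.9%), and EGTA had 8 and 10, and 16 and 12 (40% and 62.2%, against 30.6% and 44.9%). With Aeg-S/L+EGTA, NRARP, a feedback inhibitor made in response to Notch, was higher than with Aeg-S/L by 1.85 (SE 0.07) in H1437-3 and 2.202 (SE 0.10) in H292-2, and with BAPTA-AM it was lower than with EGTA by -1.85 and -3.34. All 4 were called (edgeR). JAG1 with BAPTA-AM was lower than with Aeg-S/L by -0.43 (SE 0.08) and -1.03 (SE 0.07). With EGTA, JAG1 was -0.04 (SE 0.08, adjusted p = 0.781) in H1437-3 and 1.01 (SE 0.07, adjusted p = 2.96e-10) in H292-2 (edgeR).

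In H1437-2 and H1437-3, a single gene from the marker list of each of 2 other cell types moved with Aeg-S/L. COL1A1, a fibroblast collagen gene, was higher with Aeg-S/L by 1.30 in H1437-2 and 0.87 in H1437-3, and CDH5, an endothelial cadherin, by 0.99 and 0.74. Over all libraries the fibroblast markers COL1A1, COL3A1 and PDGFRA summed to 54.3 to 226 CPM in NCI-H1437 and 18.7 to 51.6 CPM in NCI-H292. COL3A1 and PDGFRA reached at most 0.0601 and 0.14 CPM. PECAM1, the other endothelial marker on the list, matched no gene ID. CDH5 lay at 1.54 to 8.94 CPM in NCI-H1437 and 50.7 to 75.1 CPM in NCI-H292. Their part in the HES and HEY results was not tested.

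In mouse lung epithelial cells, Hes2 lay below every DPBS library of its experiment under every complete stimulus. With ALT in Lung1 it stood at 0.123, 0.333 and 0.425 CPM (4, 10 and 13 counts), against 26.0, 20.9 and 31.4 CPM with DPBS. With WT ALT in Lung3 it stood at 0.442 and 1.01 CPM, against 31.4 and 28.2 CPM. With Aeg-S/L it stood at 1.83 and 0.813 CPM in Lung2, against 31.5 and 16.6 CPM, and at 1.30 and 1.02 CPM in Rag2gc, against 39.9 and 39.2 CPM. With these complete stimuli no library of the 4 experiments exceeded 1.83 CPM, and no DPBS library lay under 16.6 CPM, Rag2gc included.

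The other pore-forming proteins gave low values too. Hes2 stood at 2.11 and 2.04 CPM with Lysenin, 1.28 and 1.28 CPM with PlyA2EryB and 6.24 and 4.81 CPM with LSL, against 38.3 and 37.8 CPM with DPBS. In IL33KO2 it stood at 10.4 and 8.79 CPM with Lysenin, 2.22 and 2.43 CPM with PlyA2EryB and 10.6 and 11.5 CPM with LSL, against 43.8 and 18.8 CPM. PlyA2EryB libraries were lowest in both experiments, and Lysenin and LSL overlapped in neither. In IL33KO1 it stood at 3.25 and 10.9 CPM with ALT and 2.34 and 1.74 CPM with Aeg-S/L, against 34.7 and 19.7 CPM.

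On the log2 scale the falls of Hes2 were -6.47 (SE 0.28) in Lung1, -5.33 (SE 0.38) in Lung3, -4.17 (SE 0.46) in Lung2 and -5.07 (SE 0.11) in Rag2gc. For Lysenin, PlyA2EryB and LSL they were -4.20, -4.89 and -2.81 in Lung4 and -1.70, -3.75 and -1.50 in IL33KO2. In IL33KO1 they were -1.94 (SE 0.57) with ALT and -3.73 (SE 0.62) with Aeg-S/L. The DPBS libraries of IL33KO1 were less alike than most: with ALT the value was -1.51 without the first DPBS library and -2.29 without the second, and with Aeg-S/L -3.29 and -4.06. With ALT it was -1.33 without the first ALT library and -3.06 without the second. In Lung3 the value was -5.27 and -5.42 without the first and second DPBS library, and -4.89 and -6.07 without the first and second WT ALT library. In IL33KO2, Lysenin, PlyA2EryB and LSL gave -0.97, -3.01 and -0.77 without the first DPBS library and -2.18, -4.22 and -1.98 without the second. In Lung2, Aeg-S/L gave -4.89 without the first Aeg-S/L library. The falls in IL33KO2 minus those in Lung4 were 2.51 for Lysenin, 1.14 for PlyA2EryB and 1.29 for LSL, where genotype and experiment cannot be told apart. These differences rest on the same DPBS libraries of IL33KO2. Since Hes2 was chosen for its falls, none of this is a test. In these comparisons 58.6% of all genes were called in either direction in Lung1, 34.2% in Lung3, 38.8% in Lung2, 68.1% in Rag2gc, 63.6%, 64.7% and 65.8% in Lung4, 39.7%, 50.3% and 37.4% in IL33KO2, and 2.92% and 10.9% in IL33KO1.

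Incomplete stimuli left Hes2 high. With Aeg-S it stood at 29.2 and 45.7 CPM and with Aeg-L at 30.8 and 25.3 CPM in Lung2, and both overlapped DPBS. With aegs KO ALT it stood at 30.9 and 21.9 CPM in Lung3, overlapping DPBS, and with aegl KO ALT at 20.9 and 15.6 CPM, below both DPBS libraries. The changes against DPBS were 0.64 (SE 0.38) with Aeg-S, 0.22 (SE 0.38) with Aeg-L, -0.17 (SE 0.29) with aegs KO ALT and -0.71 (SE 0.29) with aegl KO ALT. Without the first and second DPBS library of Lung3 they were -0.10 and -0.25 with aegs KO ALT and -0.63 and -0.78 with aegl KO ALT.

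**Figure D4:**
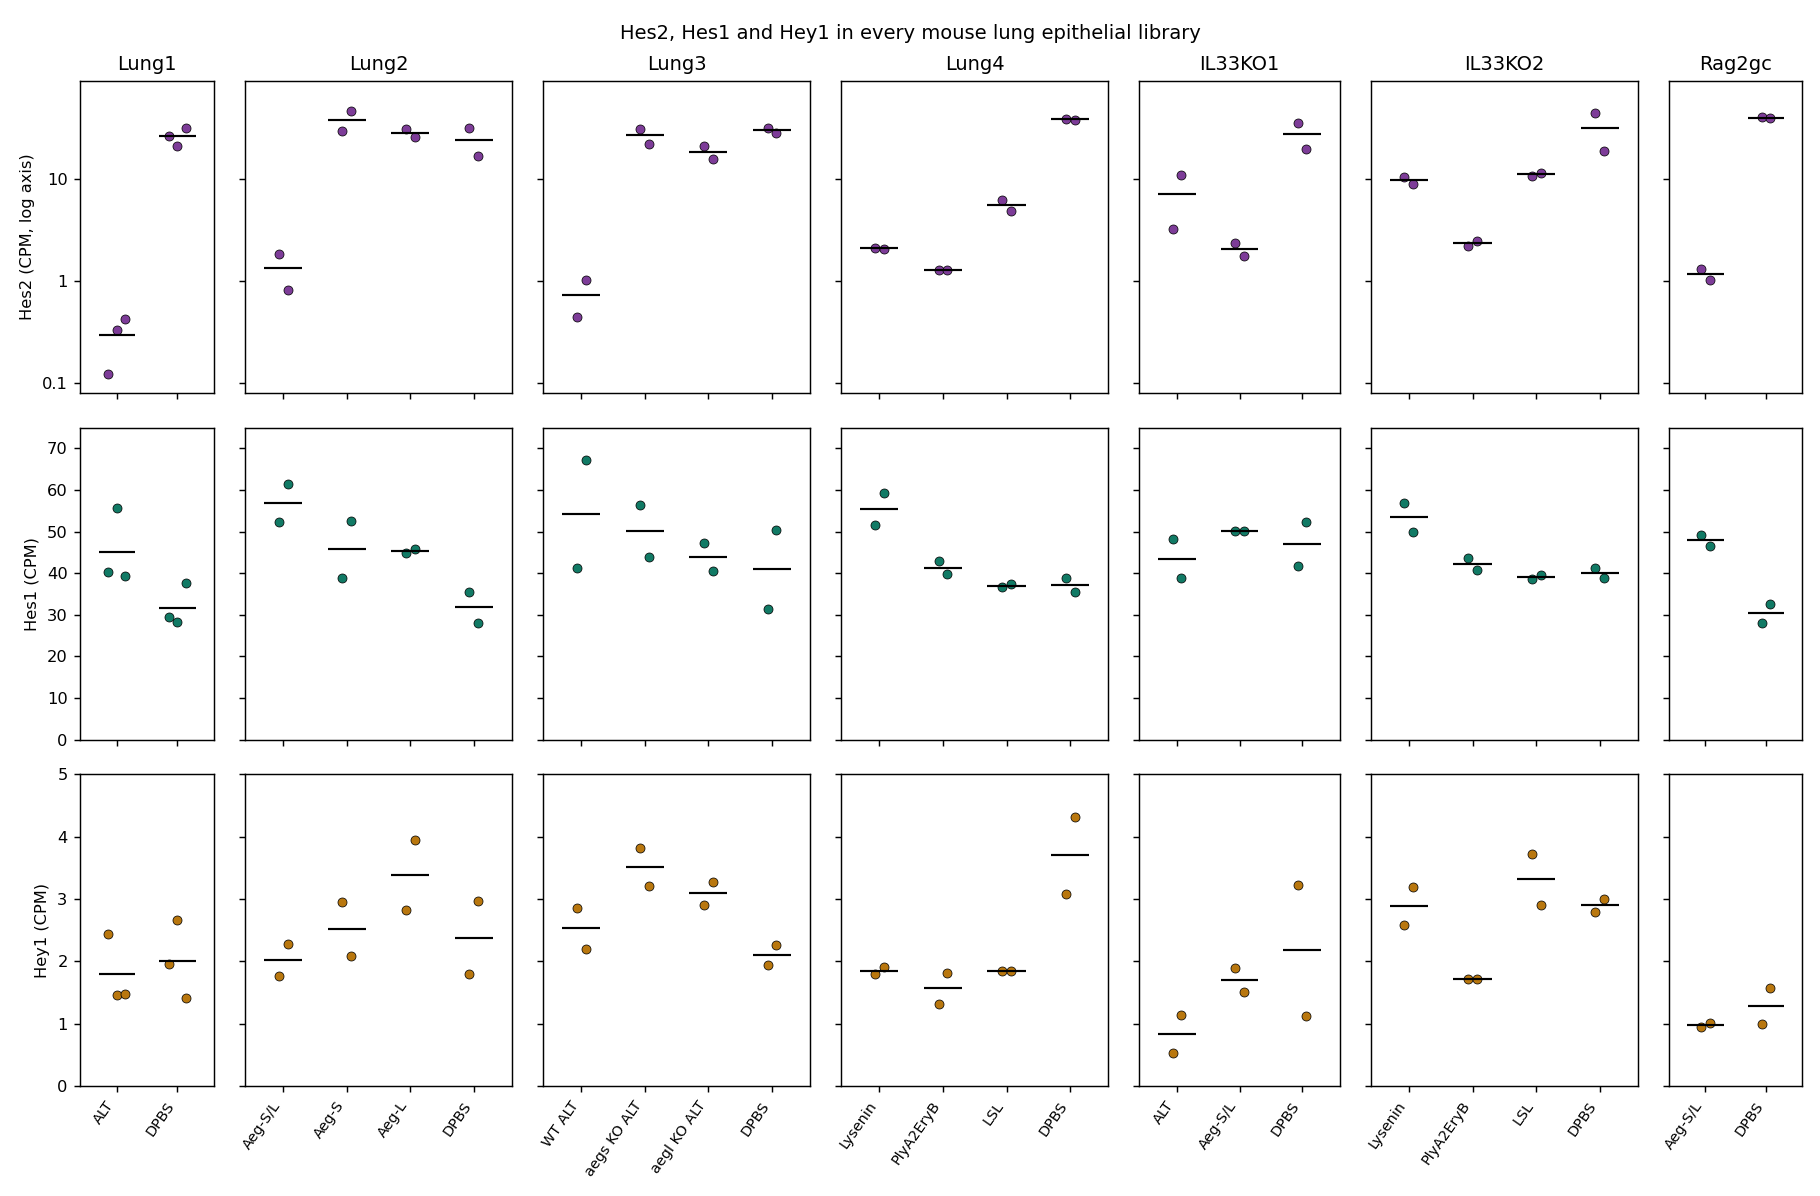
Hes2 (top, log axis), Hes1 (middle) and Hey1 (bottom, both from 0) in CPM in each of the 48 mouse libraries, 1 column per experiment. Points are libraries and bars are group means. Hes2, which was chosen for its falls, lies at 16.6 to 43.8 CPM with DPBS and at 0.123 to 11.5 CPM with the complete stimuli. Hes1 and Hey1 move far less.

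Mouse Hes1, the counterpart of human HES1, moved little beside Hes2, which was chosen for its falls. Hes1 lay between 28.0 and 67.2 CPM in all 48 libraries, and was called higher than DPBS in 5 of 12 comparisons of a complete stimulus, with 0 called lower. With ALT in Lung1 it stood at 40.4, 55.8 and 39.3 CPM, against 29.4, 28.2 and 37.6 CPM, a change of 0.51 (SE 0.15, adjusted p = 0.00948). With Aeg-S/L it stood at 52.4 and 61.6 CPM in Lung2, against 35.6 and 28.0 CPM, and at 49.1 and 46.7 CPM in Rag2gc, against 28.0 and 32.7 CPM. Those changes were 0.84 (SE 0.18, adjusted p = 0.00875) and 0.66 (SE 0.08, adjusted p = 4.37e-05, edgeR). None of these groups overlapped. The call in Lung1 was lost without the second ALT library (0.33, adjusted p = 0.0602), and that in Lung2 without the second Aeg-S/L library (adjusted p = 0.0739) or the second DPBS library (adjusted p = 0.0644). Among all genes, 28.5% were called higher in Lung1, 19.1% in Lung2 and 33.7% in Rag2gc. Where Hes1 was not called, the shares were 15.5% in Lung3 with WT ALT, 32.8% with PlyA2EryB and 33.1% with LSL in Lung4. In IL33KO2 they were 25.7% with PlyA2EryB and 19.5% with LSL, and in IL33KO1 2.4% with ALT and 6.4% with Aeg-S/L.

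Of Lysenin, PlyA2EryB and LSL, Hes1 was called with Lysenin. It stood at 51.7 and 59.3 CPM with Lysenin in Lung4, against 38.9 and 35.4 CPM with DPBS, and at 56.8 and 50.01 CPM in IL33KO2, against 41.2 and 38.8 CPM. The changes were 0.58 (SE 0.07, adjusted p = 3.58e-07) and 0.42 (SE 0.08, adjusted p = 0.00461, edgeR), where 32% and 20.7% of all genes were called higher. With PlyA2EryB the changes were 0.15 (adjusted p = 0.0556) and 0.08, and with LSL -0.01 and -0.03. The changes in IL33KO2 minus those in Lung4 were -0.15 (SE 0.12), -0.08 (SE 0.12) and -0.03 (SE 0.12), with none called. The PlyA2EryB value in Lung4 was called without the first DPBS, either Lysenin or the second PlyA2EryB library (adjusted p of 0.0135 to 0.0477, edgeR).

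In IL33KO1 neither change of Hes1 was called (-0.11 with ALT and 0.09 with Aeg-S/L). In Lung3 it stood at 41.4 and 67.2 CPM with WT ALT, against 31.5 and 50.3 CPM with DPBS, with overlap, and the change was 0.41 (SE 0.29, adjusted p = 0.303). It was 0.77 (adjusted p = 0.0345, edgeR) without the second DPBS library and 0.09 without the first. With aegs KO ALT it stood at 56.3 and 43.9 CPM and with aegl KO ALT at 47.3 and 40.5 CPM in Lung3, with no call against WT ALT (-0.12 and -0.31), where 28.8% and 27.8% of all genes were called in either direction. In Lung2 the single proteins gave 38.9 and 52.5 CPM with Aeg-S and 44.8 and 45.9 CPM with Aeg-L, both above the 2 DPBS libraries, with changes of 0.52 (SE 0.18, adjusted p = 0.698) and 0.51 (SE 0.18, adjusted p = 1). The Aeg-S value was called without the first Aeg-S library (0.73, adjusted p = 0.0333, edgeR).

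Over Hes1 and Hey1, the 4 mouse values with single proteins and the 4 with KO extracts against DPBS held 0 calls by edgeR, 2 and 1 at an unadjusted p under 0.05, and 0 and 0 calls by DESeq2. Among all genes edgeR called 0% in each of these 4 comparisons. At an unadjusted p under 0.05 there were 1178 genes with Aeg-S, 599 with Aeg-L, 1063 with aegs KO ALT and 979 with aegl KO ALT, and DESeq2 called 18, 2, 10 and 22.

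Hey1, the mouse counterpart of HEY1, lay at 0.532 to 4.31 CPM with 18 counts at the least. With DPBS it was the lowest of the 3 mouse genes per kilobase of exon, at a median of 0.694 CPM, against 11.9 CPM for Hes2 and 17.5 CPM for Hes1 (n = 15). It was called lower than DPBS in 4 of 12 comparisons of a complete stimulus. In Lung4 it stood at 1.80 and 1.90 CPM with Lysenin, 1.32 and 1.82 CPM with PlyA2EryB and 1.84 and 1.85 CPM with LSL, against 3.09 and 4.31 CPM with DPBS. All 6 treated libraries lay below both DPBS libraries. The changes were -0.99 (SE 0.20, adjusted p = 0.000298), -1.23 (SE 0.21, adjusted p = 3.65e-05) and -1.0 (SE 0.20, adjusted p = 0.000265, edgeR), where 31.6%, 31.9% and 32.7% of all genes were called lower.

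In IL33KO2, Hey1 stood at 1.72 and 1.71 CPM with PlyA2EryB, against 2.79 and 3.002 CPM with DPBS, a change of -0.75 (SE 0.21, adjusted p = 0.0202) where 24.6% of all genes were called lower. The call was lost without either PlyA2EryB library (adjusted p = 0.0968 and 0.1, edgeR). Lysenin and LSL gave -0.01 and 0.19 there. The 8 changes of Hey1 that were not called, these included, lay between -1.37 and 0.26, each in groups that overlapped. In their comparisons the share of all genes called lower was 30.1% in Lung1, 19.7% in Lung2, 18.8% in Lung3 and 34.4% in Rag2gc. It was 18.9% with Lysenin and 17.9% with LSL in IL33KO2, and 0.518% with ALT and 4.53% with Aeg-S/L in IL33KO1. The change of Hey1 in IL33KO2 minus that in Lung4 was 0.99 (SE 0.30, adjusted p = 0.0436) for Lysenin, 1.19 (SE 0.30, adjusted p = 0.0121) for LSL and 0.47 (SE 0.31, adjusted p = 0.333) for PlyA2EryB (edgeR). Of all genes, 7.8% were called higher in this test for Lysenin and 11.5% for LSL, and 14.7% in either direction for PlyA2EryB. The Lysenin difference was lost without any 1 of 11 of the 16 libraries (adjusted p up to 0.156), and the LSL difference without the second Lung4 DPBS library (adjusted p = 0.0522) or the first IL33KO2 LSL library (adjusted p = 0.0595).

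The genes whose levels followed each member most closely were listed by Pearson r of log2(CPM + 1) set against the DPBS mean of the own experiment, over all libraries of a species and with no p. Libraries of an experiment share their DPBS group. For HES1 over 51 human libraries and 14232 genes these were GEM (0.957), NCOA7 (0.942) and ARC (0.929). For HES4 they were SH2D3A (0.853), METRNL (0.844) and AP5Z1 (0.835). For HES2 they were GPRC5C (0.765), MEPCE (0.721) and ZBTB7B (0.705), and for HEY1 HSPA5 (0.738), ENSG00000133808 (0.71) and CDYL (0.708). HES1 and HES4 correlated with each other at 0.472 and HES2 and HEY1 at 0.596, while HES1 and HEY1 stood at 0.013. Over 48 mouse libraries and 16078 genes, Hes2 was followed most closely by ENSMUSG00000009905 (0.976) and ENSMUSG00000034848 (0.974), Hes1 by ENSMUSG00000031586 (0.786) and Hey1 by ENSMUSG00000034911 (0.786).

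In the deposited tables (hg19 and mm10) the exons of no member overlapped those of another gene. HES1 lies on chromosome 3 (193853934 to 193856521), HES2 on chromosome 1 (6472478 to 6484730) and HES4 on chromosome 1 (934342 to 935552) in hg19. In mm10, Hes1 lies on chromosome 16 (30064384 to 30067796), Hes2 on chromosome 4 (152158867 to 152162469) and Hey1 on chromosome 3 (8663359 to 8667256).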

How the data were processed

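The deposited tables hold raw counts per gene, which the authors made with HISAT2 2.2.1, SAMtools and featureCounts 2.0.2 on hg19 or mm10, per the submitters' processing notes, which also name DESeq2 1.36.0 and R 4.2.2. Libraries were made with a kit that does not mark strand, per the labels' protocols. Columns were matched to samples by name. In the H292-2 table, whose name says ALT while the labels say Aeg-S/L, the BAPTA columns lack the letters for Aeg-S/L and were matched to Aeg-S/L+BAPTA-AM. Names shared by 3 pairs of columns (6 columns) make those libraries a and b. In Lung4, 2 lines without a gene ID (3.02e-06% of counts) were left out. Symbols were found for 51996 of 57820 human IDs and 0 of 55401 mouse IDs. No replicate pair agreed within sampling noise (lowest chi-square per degree of freedom 3.926 in human and 2.815 in mouse).

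Fits were made per experiment, by edgeR 4.0.16 (R 4.3.3; filterByExpr, TMM, quasi-likelihood F test, Benjamini-Hochberg adjustment over all genes tested). Differences between lines or genotypes came from joint fits of the 2 experiments. Alternatives were DESeq2 1.42.0, its size factors in edgeR, no filter on low counts, a replicate block, unscaled CPM, and leaving out each library. The direct comparison of BAPTA-AM with EGTA was added after the values were seen. The code was tested on simulated data. For ALT in H1437-1 it recovered 0% of 1.5-fold, 11.9% of 2-fold and 80.3% of 4-fold changes, so smaller changes there could be missed. For Aeg-S/L in H292-2 it recovered 58.2%, 74.6% and 90.9%. Each simulation changed 67, 67 and 66 genes at these folds and left all others unchanged. In the real H292-2 comparison 43.2% of genes were called, so recovery there can differ. False calls made up 7.58% of calls for H1437-1, 5.7% for H292-2, 7.93% for Lysenin in Lung4 and 3.23% for the joint fit of Aeg-S/L. The members and gene lists were chosen with earlier results of these data known. The text names the 7 members, genes of the Notch pathway list, and the genes most like each member, 3 per human and up to 2 per mouse member.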

Additional observations from a re-analysis of the deposited data

Results flagged for a closer look

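Changes of the members differed between groups, by the test of the difference itself in edgeR joint fits, in 12 cases. Each human gene had 6 such tests, and mouse Hes1 and Hey1 had 3 each. Line and experiment, and genotype and experiment, cannot be told apart in these fits. For WT ALT against DPBS, the change in NCI-H292 (H292-1) minus that in NCI-H1437 (H1437-4) was 1.32 for HES1 (adjusted p = 1.07e-05) and -1.25 for HES4 (adjusted p = 0.0232), where 8.9% of all genes differed. The HES4 call depended on single libraries, with values of -1.42 to -1.02 when 1 was left out. For Aeg-S/L against DPBS (H292-2 minus H1437-3), the difference was 0.80 for HES1 (adjusted p = 1.47e-06) and -0.94 for HES4 (adjusted p = 0.000159), where 14.3% of all genes differed.

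The effect of BAPTA-AM against Aeg-S/L differed for all 4 human genes, by -1.04 for HES1 (adjusted p = 3.57e-08), 0.77 for HES4 (adjusted p = 0.0014), -1.09 for HES2 (adjusted p = 0.00424) and -1.20 for HEY1 (adjusted p = 0.00225), where 11% of all genes differed. The HES2 call depended on single libraries, with values of -1.54 to -0.75 when 1 was left out. The effect of EGTA differed by -0.74 for HES1 (adjusted p = 2.79e-06) and 0.70 for HES4 (adjusted p = 0.00295), where 14.4% of all genes differed. For HES1 and HES4 the chelator effects share their Aeg-S/L libraries with the Aeg-S/L differences above, so they are not separate results. In mouse, the change of Hey1 in IL33KO2 minus that in Lung4 was 0.99 with Lysenin (adjusted p = 0.0436) and 1.19 with LSL (adjusted p = 0.0121, all edgeR), where 14.5% and 22.6% of all genes differed. Both Hey1 calls depended on single libraries. With 1 left out, values ran from 0.74 to 1.22 for Lysenin and 0.95 to 1.42 for LSL.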

How the results depend on the processing

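No change of a member reversed its direction where it was called. The number of member calls stayed within 1.5 times its value under DESeq2, DESeq2 size factors, no filter on low counts and the replicate block, except in H1437-1, where 2 calls became 4 by DESeq2 and 4 without the filter. Leaving out 1 library at a time gave 1 to 4 calls in H1437-1 (2 with all libraries), 2 to 5 in H1437-2 (4), 4 to 9 in H292-1 (9), 1 to 2 in IL33KO2 (2), 0 to 1 in Lung1 (1), 0 to 2 in Lung2 (1) and 0 to 1 in Lung3 (0). For the tests of differences it gave 1 to 2 for WT ALT between lines (2) and 0 to 2 between IL33KO2 and Lung4 (2). The Notch list held 4 calls in H1437-1 by edgeR, 8 without the filter and 10 by DESeq2. HES2 with Aeg-S/L+BAPTA-AM against Aeg-S/L+EGTA in H1437-3 was not called by DESeq2 (adjusted p = 0.0639). The cause of these shifts was not tested.

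Correlations of same-numbered libraries' deviations ran from -0.528 to 0.583 and were not all over 0.1 in any experiment, so pairing was not established. In H1437-1 the 3 pairs of ALT+Tra and DPBS did correlate (0.583, 0.283 and 0.482), while pairs with ALT ran from -0.277 to 0.078. With the replicate block 1 call was lost, HES1 with Aeg-S/L+Tra against DPBS (1.22, adjusted p = 0.067), 5 were gained, and 83 values kept their side of the threshold. Gained were HES4 with ALT+Tra against ALT (adjusted p = 0.0344), HES2 with Aeg-S/L against DPBS in H1437-3 (0.0228), HES2 with aegs and aegl KO ALT against WT ALT in H1437-4 (0.0431 each) and the HEY1 difference for EGTA between lines (0.0444). No block could be fitted for IL33KO2 and Rag2gc, whose columns are not all numbered, and DESeq2 was not run for the joint fits. Groups of 2 libraries limit what can be called, and mouse Hes2 under complete stimuli, mouse Hey1 and HES2 in NCI-H1437 rest on the lowest counts (4, 18 and 35 at the least).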
